A study of Bos taurus with 6 samples.

Results

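Receptor tyrosine kinases other than the ERBB and the insulin and IGF1 receptors were followed in primary bovine granulosa cells, the somatic cells of the ovarian follicle that produce estradiol. Of the 41 names on the list, 39 are the sole gene symbol of a transcript cluster on the array, out of 24415 clusters in all, and these 39 genes are counted below. EPHA5 shares its cluster with a second symbol and was named through its RefSeq accession, so its values are given apart from the counts. LTK was not analysed here. Each of these genes is read by a single cluster, a group of probes along the transcript.

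PD98059, an inhibitor of the kinase MEK that prevents the phosphorylation of ERK, was given at 50 μM for 2 h on day 2 of a culture of 4 days, and the reference cultures received the solvent DMSO. Each treatment had 3 cultures, and both were kept on collagen-coated plates without serum and with FSH, IGF1 and androstenedione. The cells came from small and medium follicles, were frozen before use and were not sorted. The labels state that 70% of the medium was replaced after the treatment, whereas the methods describe a change to inhibitor-free medium, so whether some PD98059 stayed beyond 2 h is not settled. Total RNA was hybridized to Affymetrix bovine gene arrays, and all levels below are log2 values after the authors' Robust Multichip Average (RMA) summary. The study describes its microarray replicates as independent cell cultures, and p-values rest on the spread among these. Whether different cell preparations went into them is not given.

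Receptor tyrosine kinases span the plasma membrane. A ligand outside the cell brings receptors together, the kinase domains phosphorylate each other, and adaptor proteins then start the RAS, RAF, MEK and ERK cascade and other pathways. In the follicle, KIT and its ligand link the oocyte with theca and granulosa cells, FGF receptors take part in the talk between somatic cells and oocyte, and VEGF and TIE receptors serve the vessels outside the basement membrane. PDGF receptors and DDR2 are known from stromal and mesenchymal cells, and DDR1 from epithelia.

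The 3 PD98059 arrays had medians of 4.69 to 4.74 and the 3 DMSO arrays 4.68 to 4.70, which RMA itself brings close together. Correlations between arrays were 0.9938 to 0.995 within a treatment and 0.9912 to 0.9921 between treatments. A mean level above log2 3.70, the 95th percentile of 384 olfactory receptor clusters, was taken as above background. All 12 granulosa cell markers (such as FSHR, FOXL2 and INHA) were above it, and 8 of them were higher and none lower in the PD98059-treated cells, with a summed level of 13.65 to 13.67 in PD98059 arrays and 12.90 to 12.98 in DMSO arrays. ERK feedback genes were lower: 6 of 8 passed, among them DUSP6, the phosphatase that acts on ERK, at −1.27 (log2 fold change, PD98059 minus DMSO).

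PD98059 lowered the mRNA of 7 of the 39 receptor genes and raised that of 1. DDR2 and PDGFRB fell most, followed by MET, AXL, PDGFRA, FGFR1 and EPHA2, with folds between 1.41 and 1.97, and DDR1 rose 1.47-fold. A gene was called at a Benjamini-Hochberg false discovery rate (FDR) under 0.05 over all clusters in limma, a moderated linear model, and a fold above 1.4. By this rule 17.9% of the 39 genes were lower, against 1.78% of all clusters, and 2.56% were higher, against 0.909% of all clusters. Among the 15353 clusters above background these shares were 2.72% lower and 1.33% higher, and 26 of the 39 receptor genes lay above background. The median log2 fold change was −0.01 over the 39 genes and 0.01 over all clusters. At the FDR limit alone, 8 were lower and 3 higher, against 2.82% and 1.72% of all clusters. The values of the 2 treatments did not overlap in 17 genes (43.6%), against 25.5% of all clusters.

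**Figure D1:**
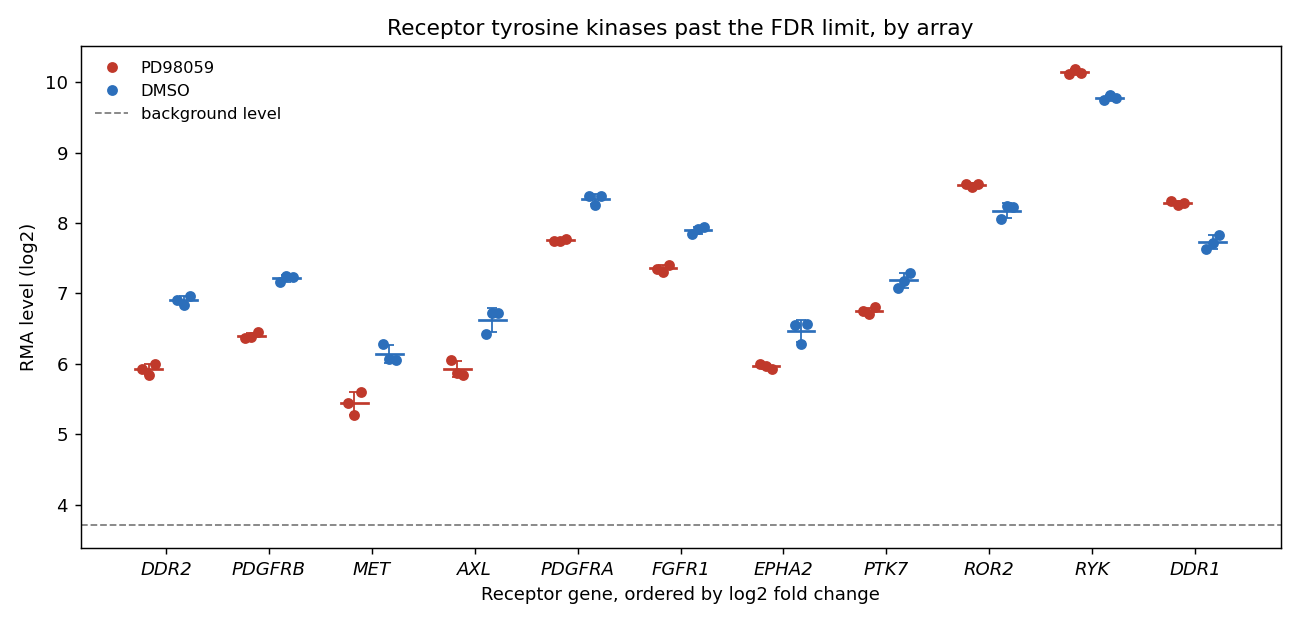
RMA level (log2, vertical axis) of the 11 receptor genes past the FDR limit, ordered by log2 fold change, with 1 point per array, PD98059 in red and DMSO in blue. Horizontal lines are means, bars are ± 1 SD (n = 3 each), and in each of these genes the points of the 2 treatments lie apart.

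The discoidin domain receptors, which bind collagen instead of a soluble factor, changed in opposite directions. DDR2, a receptor for fibrillar collagens, had levels of 5.93, 5.84 and 6.0 in the PD98059-treated cells, against 6.91, 6.83 and 6.96 in the DMSO-treated cells. The lowest DMSO value thus lay well above the highest PD98059 value. Its log2 fold change was −0.98 (standard error 0.07, 95% interval −1.15 to −0.80, adjusted p = 0.00269, limma). DDR1 had levels of 8.31, 8.25 and 8.29 in PD98059-treated cells and 7.63, 7.72 and 7.83 in DMSO-treated cells. All 3 treated cultures lay above all controls, and the log2 fold change was 0.56 (standard error 0.08, 95% interval 0.38 to 0.74, adjusted p = 0.0127, limma).

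On the same arrays, the change of DDR1 exceeded that of DDR2 by 1.53 on the log2 scale. An exact permutation test (two-sided) gave this difference p = 0.1, the smallest value that 3 arrays against 3 allow, and p = 0.144 after adjustment over the 26 contrasts of this kind, one for each receptor above background that has another such receptor in its family. The contrast of DDR2 is the same comparison with the sign reversed, and both are among the 26. The contrast of PDGFRA with PDGFRB and KIT, only −0.12, had the same values (exact permutation test, p = 0.1, adjusted p = 0.144). With 3 arrays against 3, no contrast could reach 0.05. The test thus cannot tell large contrasts from small ones, here or in the families below. Only the sizes of the contrasts are read. DDR2 passed with any 1 array left out (adjusted p = 0.0147 to 0.0209, limma). DDR1 did not pass without DMSO replicate 1 (0.51, adjusted p = 0.0573), DMSO replicate 2 (0.55, adjusted p = 0.0535) or PD98059 replicate 3 (0.55, adjusted p = 0.0536).

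Both PDGF receptors fell, while KIT, which belongs to the same structural class, did not pass. PDGFRB had levels of 6.37, 6.38 and 6.45 in PD98059-treated cells and 7.16, 7.25 and 7.23 in DMSO-treated cells. The cultures of each treatment lay close together and far from those of the other, and the log2 difference was −0.81 (standard error 0.07, 95% interval −0.97 to −0.66, adjusted p = 0.00294, limma). PDGFRA, which also binds PDGF-A and PDGF-C, had levels of 7.74, 7.75 and 7.77 with PD98059 and 8.38, 8.26 and 8.38 with DMSO. Again no values overlapped, and the log2 fold change was −0.59 (standard error 0.07, 95% interval −0.75 to −0.43, adjusted p = 0.00719, limma). Both calls held with any 1 array left out, with adjusted p-values of 0.016 to 0.046 in limma.

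KIT, the receptor of stem cell factor, had levels of 8.54, 8.45 and 8.52 in PD98059-treated cells and 8.75, 8.47 and 8.66 in DMSO-treated cells. These ranges overlap, and the log2 fold change of −0.12 had a 95% interval of −0.34 to 0.09. The change of KIT lay 0.58 above the mean change of the 2 PDGF receptors (exact permutation test, p = 0.1, adjusted p = 0.144). In the ARS-UCD2.0 annotation PDGFRA, KIT and KDR are direct neighbours on chromosome 6, with 0 protein-coding genes between them. Of these 3 adjacent genes only PDGFRA passed, while KDR was near background (log2 fold change 0.09). PDGFRB is a direct neighbour of CSF1R, the receptor of macrophage colony-stimulating factor, on chromosome 7, and CSF1R stood at 0.01 (adjusted p = 0.988, limma). FLT3, also of this class, was near background at a mean of 2.07.

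Because the PDGF receptors and DDR2 are also genes of stromal cells, markers of fibroblasts and mural cells were read on the same arrays. Of 12 such markers, 11 were above background, 2 were lower in PD98059-treated cells (TAGLN at −0.77 and CNN1 at −0.66) and none was higher. MYH11, a smooth muscle myosin, at 0.62 (adjusted p = 0.0694, limma) and CSPG4, a pericyte proteoglycan, at 0.45 (adjusted p = 0.0888) did not pass, but their PD98059 values all lay above the DMSO values. The summed level of these markers was 13.03 to 13.11 in PD98059 arrays and 13.15 to 13.17 in DMSO arrays. The abundant matrix genes POSTN, LUM and DCN had log2 fold changes of −0.03, −0.17 and −0.06, and none passed. In LUM all PD98059 values lay below the DMSO values, while in POSTN and DCN the treatments overlapped. Among the collagen genes COL1A1 had −0.46 and passed the FDR limit alone (adjusted p = 0.0464, limma). COL1A2 had −0.21 and COL3A1 0.20, and neither passed. In COL1A1 and COL1A2 all PD98059 values lay below the DMSO values, and in COL3A1 all lay above. RGS5, a pericyte marker, was near background. In bulk RNA, fewer cells of a type and less RNA per cell cannot be told apart, and the part of stromal cells in the fall of these receptors was not tested.

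Of the TAM receptors, which bind GAS6 and protein S and serve the clearance of dying cells, AXL fell while MERTK and TYRO3 did not pass. AXL had levels of 6.05, 5.87 and 5.84 in PD98059-treated cells and 6.42, 6.72 and 6.72 in DMSO-treated cells. The lowest control, DMSO replicate 1, was the nearest to the treated cultures but still above all of them, and the log2 fold change was −0.70 (standard error 0.11, 95% interval −0.96 to −0.44, adjusted p = 0.0194, limma). MERTK had 7.69, 7.64 and 7.82 with PD98059 and 7.68, 7.75 and 7.84 with DMSO, which overlap. TYRO3 had 8.37, 8.41 and 8.43 with PD98059 and 8.28, 8.25 and 8.35 with DMSO, a gap too small to pass (log2 fold change 0.11, adjusted p = 0.414, limma). The change of AXL lay 0.74 below the mean of the other 2 (exact permutation test, p = 0.1, adjusted p = 0.144). The call of AXL was lost without DMSO replicate 2 (−0.65, adjusted p = 0.0726), DMSO replicate 3 (−0.65, adjusted p = 0.0802), PD98059 replicate 2 (−0.67, adjusted p = 0.0783) or PD98059 replicate 3 (−0.66, adjusted p = 0.0732).

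MET, the receptor of hepatocyte growth factor, also fell. Its levels were 5.44, 5.27 and 5.60 in PD98059-treated cells and 6.28, 6.07 and 6.05 in DMSO-treated cells. The cultures of each treatment spread more than for the PDGF receptors, with no overlap between treatments, and the log2 fold change was −0.70 (standard error 0.11, 95% interval −0.96 to −0.44, adjusted p = 0.0201, limma). This call was lost without DMSO replicate 1 (−0.62, adjusted p = 0.076), DMSO replicate 2 (−0.73, adjusted p = 0.0633), DMSO replicate 3 (−0.74, adjusted p = 0.0632), PD98059 replicate 1 (−0.70, adjusted p = 0.0678) or PD98059 replicate 2 (−0.61, adjusted p = 0.0633). MST1R, the related receptor of macrophage-stimulating protein, was near background with a log2 fold change of 0.19.

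Among the FGF receptors FGFR1 fell, and FGFR2, FGFR3 and FGFR4 did not pass. FGFR1 had levels of 7.35, 7.31 and 7.40 in PD98059-treated cells and 7.84, 7.91 and 7.94 in DMSO-treated cells. The treated cultures all lay below the controls by −0.54 in the log2 mean (standard error 0.07, 95% interval −0.70 to −0.39, adjusted p = 0.00933, limma), and the call held with any 1 array left out (adjusted p = 0.0358 to 0.0477). FGFR2 at −0.02, FGFR3 at 0.06 and FGFR4 at −0.12 were above background, with 95% intervals that together run from −0.33 to 0.30. The change of FGFR1 lay 0.52 below the mean change of these 3 (exact permutation test, p = 0.1, adjusted p = 0.144). The test allows no smaller p-value, so it does not set this contrast apart from smaller ones.

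**Figure D2:**
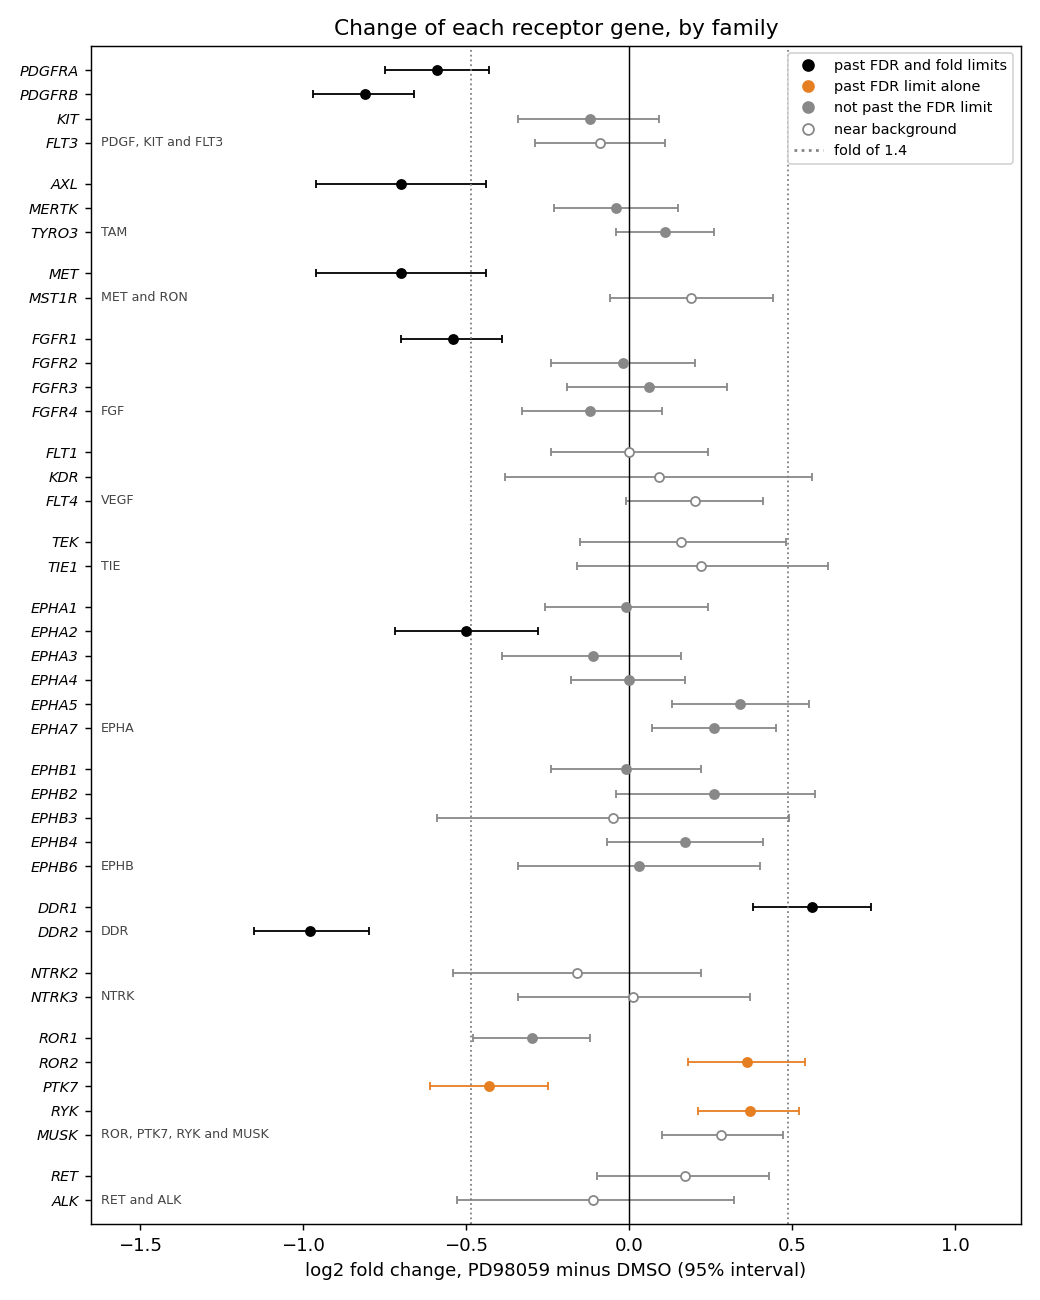
Log2 fold change, PD98059 minus DMSO, of the 39 receptor genes and of EPHA5 (horizontal axis), grouped by family, with 95% intervals from limma. Black points passed the FDR and fold limits, orange points the FDR limit alone, open points were near background, and dotted lines mark the fold of 1.4.

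The Eph receptors, which bind ephrins on neighbouring cells and guide cell contact and sorting, were represented by 10 counted genes and EPHA5, and only EPHA2 passed. EPHA2 had levels of 6.0, 5.97 and 5.93 in PD98059-treated cells and 6.55, 6.28 and 6.56 in DMSO-treated cells. The controls lay above all treated cultures, with DMSO replicate 2 lowest among them, and the log2 fold change was −0.50 (standard error 0.09, 95% interval −0.72 to −0.28, adjusted p = 0.0347, limma). Its fold of 1.41 lay just past the limit of 1.4. The call was lost without DMSO replicate 1 (−0.45, adjusted p = 0.126), DMSO replicate 3 (−0.45, adjusted p = 0.117), PD98059 replicate 1 (−0.51, adjusted p = 0.0886), PD98059 replicate 2 (−0.50, adjusted p = 0.107) or PD98059 replicate 3 (−0.48, adjusted p = 0.114), and with a repeated quantile normalization (−0.46, inside the fold limit).

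EPHA4, well above background with 7.39, 7.55 and 7.58 in PD98059-treated cells and 7.52, 7.49 and 7.52 in DMSO-treated cells, had overlapping values and a 95% interval of −0.18 to 0.17. EPHA5 had 7.19, 7.41 and 7.29 with PD98059 and 6.99, 6.85 and 7.03 with DMSO. EPHA7 had 7.47, 7.70 and 7.57 with PD98059 and 7.28, 7.37 and 7.31 with DMSO. In both genes the treated values lay above the controls, but neither passed the FDR limit (log2 fold changes 0.34 and 0.26, adjusted p = 0.087 and 0.141, limma). The change of EPHA2 lay 0.59 below the mean of the other 5 EPHA genes, and that of EPHA5 lay 0.41 above (exact permutation test, p = 0.1 each, adjusted p = 0.144). EPHA1 at −0.01 and EPHA3 at −0.11 did not pass either. Of the EPHB genes, EPHB1 at −0.01, EPHB2 at 0.26, EPHB4 at 0.17 and the kinase-inactive EPHB6 at 0.03 did not pass, and EPHB3 was near background with the widest 95% interval of all the receptors, −0.59 to 0.49.

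The receptors that carry WNT signals or take part in planar polarity lay on both sides of 0 and inside the fold limit. RYK, a WNT receptor without an active kinase, had levels of 10.11, 10.19 and 10.13 in PD98059-treated cells and 9.74, 9.82 and 9.77 in DMSO-treated cells. ROR2, a receptor of WNT5A, had 8.56, 8.51 and 8.55 with PD98059 and 8.06, 8.24 and 8.23 with DMSO. PTK7, a planar polarity protein that also lacks kinase activity, had 6.75, 6.71 and 6.80 with PD98059 and 7.08, 7.18 and 7.29 with DMSO. In none of these 3 genes did the treatments overlap, and each passed the FDR limit alone, with log2 fold changes of 0.37 (adjusted p = 0.0285), 0.36 (adjusted p = 0.0466) and −0.43 (adjusted p = 0.0314, limma). The folds of 1.29, 1.29 and 1.35 were inside the limit of 1.4. With any 1 array left out, none of the 3 passed the FDR limit (adjusted p = 0.072 to 0.114 for RYK, 0.092 to 0.136 for ROR2 and 0.0662 to 0.107 for PTK7).

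ROR1 had 7.32, 7.40 and 7.29 in PD98059-treated cells and 7.74, 7.55 and 7.62 in DMSO-treated cells. The treated cultures lay below the controls, and the log2 fold change of −0.30 missed the FDR limit (adjusted p = 0.087, limma). The change of ROR2 lay 0.48 above the mean of ROR1, PTK7 and RYK, and that of ROR1 lay 0.40 below the mean of ROR2, PTK7 and RYK. Against the other 3 of these genes, PTK7 had a difference of −0.57 and RYK of 0.49 (exact permutation test, p = 0.1 for each of the 4, adjusted p = 0.144). MUSK, the receptor of the neuromuscular junction, was near background at 2.91, 2.73 and 2.75 with PD98059 and 2.49, 2.58 and 2.47 with DMSO.

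The receptors of vessels and neurons were near background in these cultures. The 13 receptor genes with a mean level of 2.07 to 3.64 include the VEGF receptors FLT1, KDR and FLT4, the angiopoietin receptor TEK and its partner TIE1, the neurotrophin receptors NTRK2 and NTRK3, the GDNF family receptor RET, and ALK. Their log2 fold changes ran from −0.16 to 0.28, none passed the FDR limit, and the lowest adjusted p was 0.104 (limma), that of MUSK, which alone had an unadjusted p under 0.05. Of 7 endothelial markers 3 were above background, VWF, CLDN5 and ESAM, while PECAM1, EMCN, ROBO4 and ERG were near background as well. VWF was lower (−0.57) and no endothelial marker was higher, with a summed level of 6.85 to 6.88 in PD98059 arrays and 6.96 to 7.06 in DMSO arrays. Of 7 markers of immune cells 4 were above background and none passed, and 0 of 5 oocyte markers were above background. Of the 2 theca markers, INSL3 was above background and higher (0.61), and CYP17A1 was near background.

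**Figure D3:**
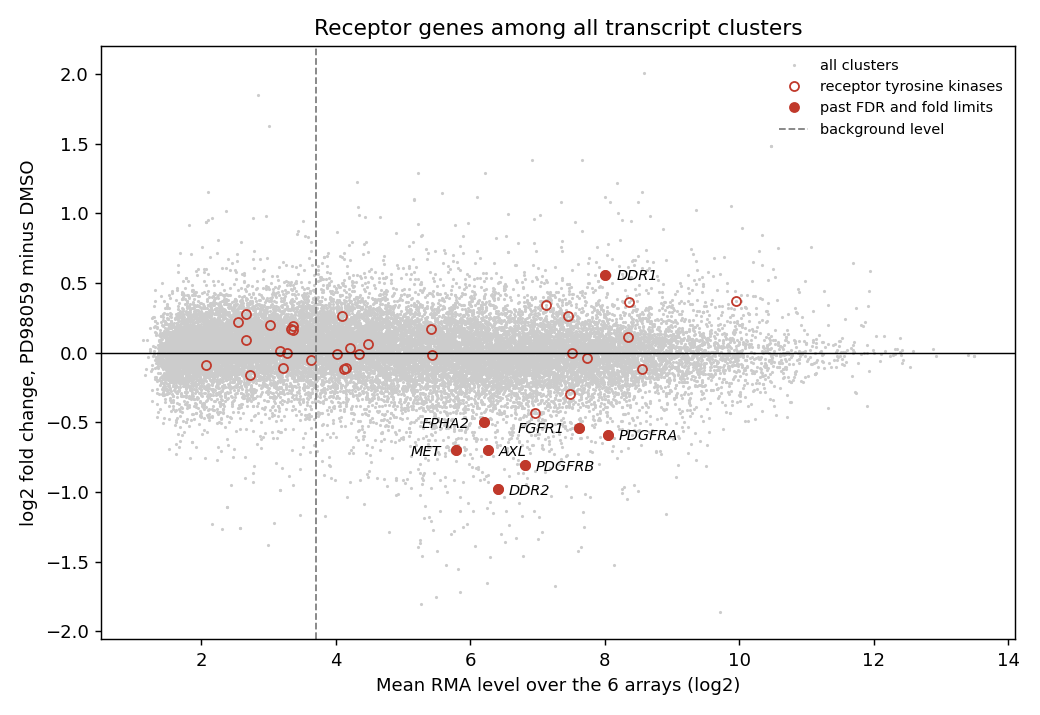
Mean RMA level over the 6 arrays (log2, horizontal axis) against the log2 fold change, PD98059 minus DMSO, of all 24415 clusters (grey) and of the 39 receptor genes with EPHA5 (red circles). Filled circles passed the FDR and fold limits, and all 8 lie to the right of the dashed background level.

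The ligands of these receptors were read from a list of 45 measured genes, of which 31 were above background. In the PD98059-treated cells 2 of the 45 were called higher and 2 lower, against 0.909% and 1.78% of all clusters. This leaves 41 that were not called, and the median log2 fold change was 0.04. PDGFD, which activates PDGFRB, fell, at −0.89 (standard error 0.10, adjusted p = 0.00647, limma), on the same side as its receptor. Of the other PDGF chains, PDGFC at −0.39 passed the FDR limit alone (adjusted p = 0.0341), and PDGFA at 0.22 and PDGFB at 0.24 did not. WNT5A, a ligand of ROR2, ROR1 and RYK, fell by 0.69 (adjusted p = 0.00947, limma), a call lost without DMSO replicate 1 (−0.66, adjusted p = 0.0543). COL1A1, a chain of the fibrillar collagen that binds DDR1 and DDR2, had −0.46 (adjusted p = 0.0464), inside the fold limit, COL1A2 −0.21 and COL3A1 0.20.

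The higher ligands were PGF, placental growth factor, which binds FLT1, at 0.71 (standard error 0.09, adjusted p = 0.00856, limma) and EFNA5, a membrane-bound ephrin of the EPHA receptors, at 0.66 (standard error 0.08, adjusted p = 0.00751). Of the 8 ephrins measured, EFNA5 alone passed, and the other EPHA ligands EFNA1, EFNA2, EFNA3 and EFNA4 had log2 fold changes of −0.00, 0.01, 0.12 and 0.14, beside −0.23 for EFNB1, −0.01 for EFNB2 and 0.33 for EFNB3. The ligands of the TAM receptors did not pass: GAS6, just above background, stood at 0.16 and PROS1, the gene of protein S, at 0.25. HGF, the ligand of MET, was near background (0.04). Of the 9 FGF genes measured none passed, and their log2 fold changes ran from −0.38 to 0.34. FGF2 stood at −0.03 and FGF18 at 0.31, both above background, and FGF7, near background, at 0.00. Among these 9 are FGF12 and FGF13, FGF homologs that stay inside the cell, at 0.22 and −0.38. KITLG, the ligand of KIT, had −0.18 (adjusted p = 0.332), and ANGPT2, a ligand of TEK, had 0.49 (adjusted p = 0.0737).

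**Figure D4:**
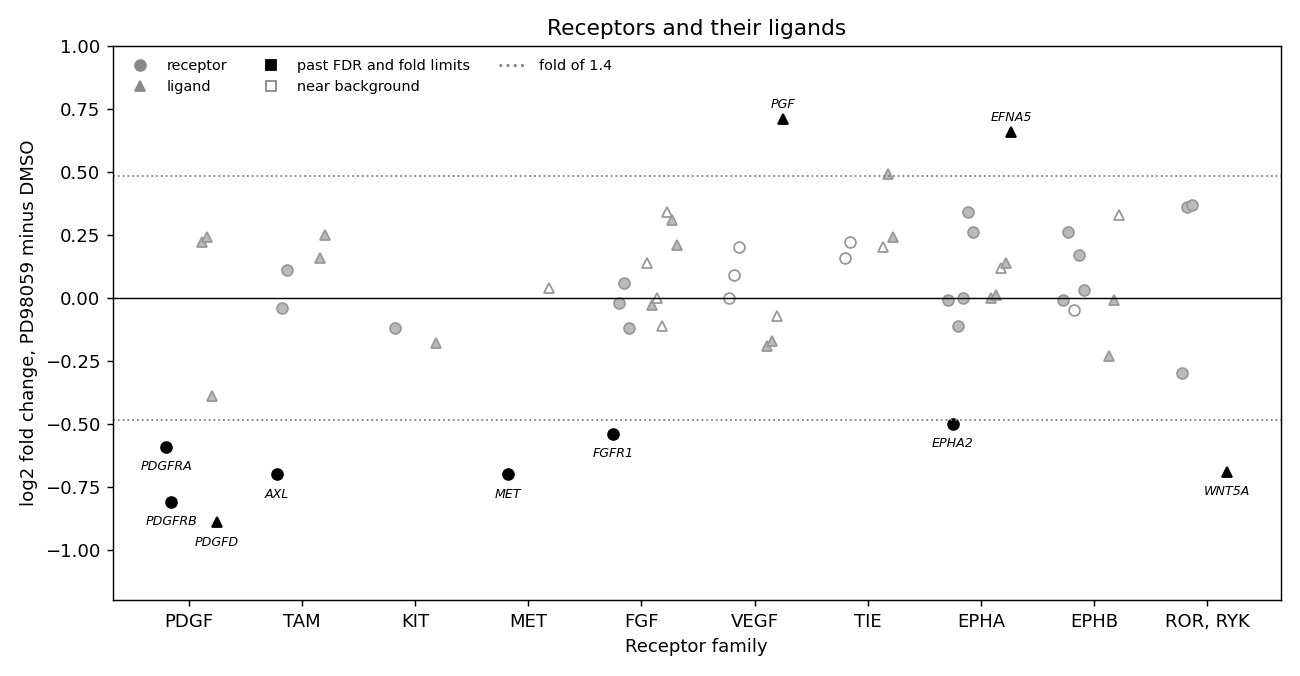
Log2 fold change, PD98059 minus DMSO (vertical axis), of receptors (circles) and of their secreted or membrane-bound ligands (triangles) in 10 receptor groups (horizontal axis); FGF12, FGF13, the discoidin domain receptors and the collagens are not drawn. Named black symbols passed the FDR and fold limits, open symbols were near background, and the PDGF group holds called receptors and a called ligand on the lower side.

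Co-receptors, which present ligands or modify signaling, moved in both directions. Calls were made for 2 higher and 3 lower genes of the 28 measured, not for the other 23, with a median log2 fold change of −0.03. Over all clusters 0.909% were called higher and 1.78% lower. NRP1, a co-receptor for VEGF and semaphorins, was higher at 0.63 (standard error 0.06, adjusted p = 0.00527, limma), and GFRA1, which pairs with RET to bind GDNF, at 0.99 (standard error 0.18, adjusted p = 0.0321). The DMSO levels of GFRA1, 3.62, 4.05 and 3.9, lay around the background level of 3.70, and RET was near background. The lower ones were heparan sulfate proteoglycans that hold FGFs at the cell surface, SDC1 at −0.80, GPC4 at −0.63 and SDC4 at −0.49. They are 3 of the 8 syndecans and glypicans measured, and the other 5 did not pass, with GPC1 at −0.36 (adjusted p = 0.0525), GPC6 at −0.10, SDC2 at 0.03, SDC3 at 0.15 and GPC3 at 0.28. NRP1 passed with any 1 array left out. GFRA1 did not pass without DMSO replicate 1, 2 or 3 or PD98059 replicate 1 or 2 (adjusted p = 0.109, 0.0692, 0.103, 0.0779 and 0.107), and neither did SDC1 without the same arrays (0.123, 0.108, 0.0527, 0.0986 and 0.113). SDC4 did not pass without DMSO replicate 1, 2 or 3 or PD98059 replicate 2 or 3 (adjusted p = 0.0641, 0.0558, 0.0624, 0.0517 and 0.0502), and GPC4 without DMSO replicate 1 or PD98059 replicate 2 or 3 (0.0635, 0.0581 and 0.054).

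Of 33 adaptors and phosphatases that act just below the receptors, none passed in either direction, in limma, while 4 of the higher and 5 of the lower ones had an unadjusted p under 0.05. At the FDR limit alone 1 did, PIK3R1, the regulatory subunit of PI3-kinase, at 0.44 (adjusted p = 0.0194, limma). The adaptors GRB2 at −0.16, SHC1 at −0.25, GAB1 at 0.19 and FRS2 at 0.10, the ubiquitin ligase CBL at 0.01 and the phosphatase PTPN11 at 0.04 did not pass. The log2 fold changes of the whole list ran from −0.28 to 0.44 with a median of −0.01.

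The ERBB and insulin family receptors were read on the same arrays. Of 7 measured, EGFR at 0.67, INSR at 0.68 and IGF1R at 0.55 were higher and none was lower, whereas 7 of the 39 other receptor tyrosine kinases were lower and 1 was higher. This difference between the lists was not tested, and of all clusters 0.909% were called higher and 1.78% lower. The call of IGF1R was lost without DMSO replicate 1 (0.54, adjusted p = 0.0543, limma). With the replicate number as a block, EGFR passed (adjusted p = 0.0473), and INSR (0.0568) and IGF1R (0.0565) did not. A further 6 receptor tyrosine kinases outside both lists, among them CSF1R and EPHA6, held no gene that passed in limma (2 higher and 0 lower at an unadjusted p under 0.05), with log2 fold changes of −0.13 to 0.32.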

How the data were processed

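RNA of 3 PD98059-treated and 3 DMSO-treated cultures was hybridized to GeneChip Bovine Gene 1.0 ST arrays. The authors used RMA in Expression Console, which corrects background, normalizes between arrays and summarizes probes, and deposited log2 values. For the genome build, nothing is given in the sources used here. A second deposited table was equal in all 146490 cells. RMA gives the arrays 1 distribution and would hide a change common to most genes.

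All 24415 clusters were fitted with limma 3.58.1 (lmFit, eBayes) in R 4.3.3, and all tests are two-sided. The prior had 2.8 degrees of freedom beside 4 residual ones, and the median standard error was 0.10. Precision is limited by how few arrays there are. The methods name an ANOVA in the TAC software without saying whether its variances were moderated. An unmoderated ANOVA was run here as an alternative and is not taken as the study's own test. Where a gene of the other lists has several clusters, the one with the highest mean was used. Other genes were named by the symbol in the table, or by RefSeq accession (ARS-UCD2.0). VEGFA, FGF9, SHC2, PLCG2, CDH5 and EGFL7 were not analysed here. Scripts were tested on simulated data.

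The members and lists were chosen with earlier results of these data known. Per-array values are given for members past the FDR limit, those above background with a log2 fold change beyond 0.3, and 6 by mean level, with a few related genes chosen after their values were seen. From the ligand, co-receptor and adaptor lists, called genes are named, with ligands of called receptors, though not every FGF, and other genes as examples. Of the marker, feedback and other receptor lists a few genes are named as examples, chosen after their values were seen. Alternatives tried were a replicate block, median centring, repeated quantile normalization, a background filter, a variance trend, array weights, the ANOVA, limma's treat, no fold limit, the mean of a gene's clusters and leaving out each array.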

Additional observations from a re-analysis of the deposited data

How the results depend on the processing

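In all, 27 genes (15 receptors, EPHA5 among them, and 12 others) were followed over 16 settings. Of the 432 values 349 kept their side of the threshold, 80 lost a call, 3 gained one and 0 changed direction. KIT, TYRO3, EPHA5, ROR1, ROR2, PTK7 and RYK had no call to lose, which raises the count that kept their side. Dropping the fold limit reuses the main fit and can only add calls, here those of ROR2, PTK7 and RYK. The mean of a gene's clusters left the log2 fold changes of the receptors unchanged. Among the receptors, the count of lower genes (7) was 4 with the unmoderated ANOVA, where AXL, MET and EPHA2 were lost, and 0 with treat, which tests against the fold of 1.4 itself. The count of higher genes (1) was 0 with treat and 3 without a fold limit. With 1 array left out the lower count was 4 to 5 and the higher count 0 to 1. Ligands (2 higher, 2 lower) had 0 and 0 with treat, and 2 to 3 and 1 to 2 with 1 array left out. Co-receptors (2 higher, 3 lower) had 1 and 1 with the ANOVA, 0 and 0 with treat, and 1 to 2 and 0 to 2 with 1 array left out. Adaptors (0 higher, 0 lower) had 0 and 0 with the ANOVA and 1 higher without a fold limit.

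The treatments share replicate numbers 1 to 3, which nothing in the labels ties to a shared preparation. Deviations of same-numbered arrays correlated at 0.05, 0.04 and 0.04, other pairs at −0.04 to −0.00, so each array correlated best with its own number. The deviations were taken from the mean of each treatment and sum to 0 over its 3 arrays, so these correlations depend on each other. Such small values cannot decide whether the numbers mark a shared preparation. The replicate block also leaves fewer residual degrees of freedom than the 4 of the main fit. With the replicate block, 2 receptors were lower (DDR2, adjusted p = 0.03, and PDGFRB, 0.0336) and 0 higher, 0 ligands were higher and 1 lower, 1 co-receptor was higher and 0 lower, and of the called ERBB and insulin receptors INSR (0.0568) and IGF1R (0.0565) were lost.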
